A study of Mus musculus with 52 samples.

Results

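Zfp42, known in embryonic stem (ES) cells as Rex1, is described here across 7 mouse ES lines compared in pairs on 52 cDNA arrays. It was found by its symbol in the platform annotation. That symbol stands at 1 probe of the 20794 in the deposited table (Entrez gene 22702, chromosome 8), which makes it 1 of 9030 named genes and 1 of 17053 features once probes without a symbol are counted singly. The gene was selected on its measured log2 ratios in HM-1 vs #4 (B6) and HM-1 vs B6NT, which earlier results of these data showed to be large, so its values are given as a description, without a test.

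The series compares ES lines of different origin, among them lines made from donor nuclei. The lines are named HM-1, #4 (B6), HM-1 NT, ZFCUMNT, PDCUMNT, B6PGA and B6NT, and every array carried 1 line in Cy3 and another in Cy5. There were 13 comparisons with 4 arrays each, the dyes being swapped on arrays 3 and 4. HM-1 is an established mouse ES line used for gene targeting. The labels spell out none of the other names. Per the series text 2 lines came from cumulus donor nuclei and differ in how the embryos were cloned, without saying which lines these are. Strain, sex, passage, culture medium and feeder layer are not given in the sources used here, nor whether the 4 arrays of a comparison came from separate cultures, so the spread between arrays may be technical.

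Zfp42 encodes a zinc finger protein of the YY1 family. The gene is transcribed in the inner cell mass and in undifferentiated ES cells, is lowered early when ES cells leave the naive state, and is widely used as a marker of that state. Its promoter is known for an octamer site bound by Oct4, the product of Pou5f1, and its protein is a substrate of the ubiquitin ligase Rlim, which links it to X chromosome inactivation.

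The stretch just before the gene's start is shown because it holds an octamer, and values of Pou5f1 are given further on. No site for Sox2 was searched, and the letters do not show binding in these lines. It is the RefSeq promoter on the minus strand of GRCm38, chr8:43307010-43307259, 250 bases that end at the base before the start. Capitals mark the octamer ATTTGCAT and the GC box core CCGCCC.
Zfp42 promoter: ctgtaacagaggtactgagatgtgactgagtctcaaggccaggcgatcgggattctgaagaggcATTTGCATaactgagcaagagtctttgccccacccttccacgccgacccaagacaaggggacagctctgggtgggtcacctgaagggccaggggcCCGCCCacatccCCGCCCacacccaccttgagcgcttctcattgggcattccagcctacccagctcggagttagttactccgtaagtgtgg
The octamer lies from -186 to -179 relative to the start, on the strand of the gene. Among 32851 promoter windows of the same length, 526 (1.6%) held these letters on either strand. The GC box core was found 2 times, from -91 to -86 and from -79 to -74, and 32.7% of the windows held it. The YY1 motif AAGATGG, searched on both strands, was not among these letters, while 4.49% of the windows held it. The motifs searched do not overlap one another here.

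All values below are log2 ratios turned by the dye labels so that the first-named line is subtracted from the second-named one, and a negative value means less signal in the latter. The dye in the numerator is not stated, and Cy5 over Cy3 is the reading used. Under the opposite reading every sign turns at once: higher and lower, rose and fell, and the order of the lines from high to low are all exchanged, while sizes and total counts of calls are as given. Each array had from 17620 to 20200 measured probes and a median ratio from -0.21 to 0.47. Ratios hold no level of either channel, so whether ES cell markers were present in each line cannot be read from them. Zfp42 was measured on 48 arrays and missing on 4, which were arrays 2 and 4 of #4 (B6) vs ZFCUMNT, array 4 of HM-1 NT vs ZFCUMNT and array 1 of PDCUMNT vs ZFCUMNT. The arrays of HM-1 NT vs ZFCUMNT disagreed with one another in sign. Dhcr7, a cholesterol synthesis enzyme, was there at 1.42, -2.72, 1.72 and -0.69, and the imprinted gene Peg3 at -1.10, 1.97, -2.09 and 0.49 on arrays 1 to 4. Whether the dye labels or the RNA of these arrays are as stated was not tested, so the turned values of this comparison, and the HM-1 NT level that draws on them, hold only if they are. The line levels, the contrast of lines, the direct and predicted values and the likeness ranking are given with and without it. RefSeq also lists a pseudogene, Zfp42-ps1, on chromosome 15, and whether the probe reads it was not tested.

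Zfp42 was far lower in each of 5 lines than in HM-1, with log2 ratios from -3.91 to -1.74 over 20 arrays and a median of -2.52, which is a fold of 3.34 to 15.0. It was far higher in HM-1 NT than in B6NT, on 4 arrays from 1.60 to 3.34. Among the 5 lines themselves the 17 measured arrays ran from -1.43 to 2.12 with a median of 0.06, 7 below and 10 above 0. The 20 arrays against HM-1 and the 17 among the 5 lines did not overlap. Those 20 include HM-1 vs #4 (B6) and HM-1 vs B6NT, on which the gene was selected. How many other features lie apart in this way was not counted.

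In HM-1 vs #4 (B6) the 4 arrays read -3.91, -2.74, -1.74 and -3.01. The value was -2.85 ± 0.41 (SE, n = 4 arrays), a fold of 7.20, and 18th in size among 16410 features tested. The SE of comparison values, here and below, comes from a spread per gene estimated over all arrays together. It is thus the same for each comparison in which a gene has 4 measured arrays, and does not measure the spread of those 4. All 4 lay below every array of #4 (B6) vs B6NT. The gene was selected on this comparison and on HM-1 vs B6NT, so its ranks in both and this separation follow in part from that choice.

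In HM-1 vs B6NT the arrays read -2.98, -2.97, -2.64 and -3.00. Their SD of 0.17 was the smallest of any comparison with Zfp42 measured on 3 or 4 arrays. The value was -2.90 ± 0.41 (SE, n = 4 arrays), a fold of 7.45, and 14th in size among 16493 features.

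In HM-1 vs B6PGA the arrays read -1.82, -1.95, -2.28 and -2.51, and the value was -2.14 ± 0.41 (SE, n = 4 arrays), a fold of 4.41. It ranked 112 in size among 16191 features. HM-1 vs PDCUMNT gave -1.74, -2.51, -2.48 and -3.37, for a value of -2.53 ± 0.41 (SE, n = 4 arrays), a fold of 5.76 and rank 79 among 15842. The array range of the former lies within that of the latter.

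In HM-1 vs ZFCUMNT the arrays read -1.84, -3.27, -2.52 and -2.14. The value was -2.44 ± 0.41 (SE, n = 4 arrays), a fold of 5.43, and 27th in size among 15906 features. All 5 comparisons share HM-1 as the first line, so their values are not independent of one another. The 4 arrays of HM-1 vs B6NT all lay below the 4 of HM-1 vs B6PGA, while the ranges of the other 3 comparisons overlap both. The gene was selected in part on HM-1 vs B6NT, and how many features lie apart in this way was not counted.

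B6NT vs HM-1 NT is the comparison with a large Zfp42 value that does not use HM-1 RNA. Its arrays read 3.34, 2.00, 1.60 and 2.03, and the value was 2.24 ± 0.41 (SE, n = 4 arrays), a fold of 4.72, ranked 68 among 15221 features. Zfp42 was higher in HM-1 NT on each array. In these 6 comparisons the deposited ratios had opposite signs in the 2 dye orientations on all 24 arrays. In HM-1 vs #4 (B6), for example, the 2 arrays with #4 (B6) in Cy5 averaged -3.32 before turning and the 2 with it in Cy3 averaged 2.38.

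**Figure D1:**
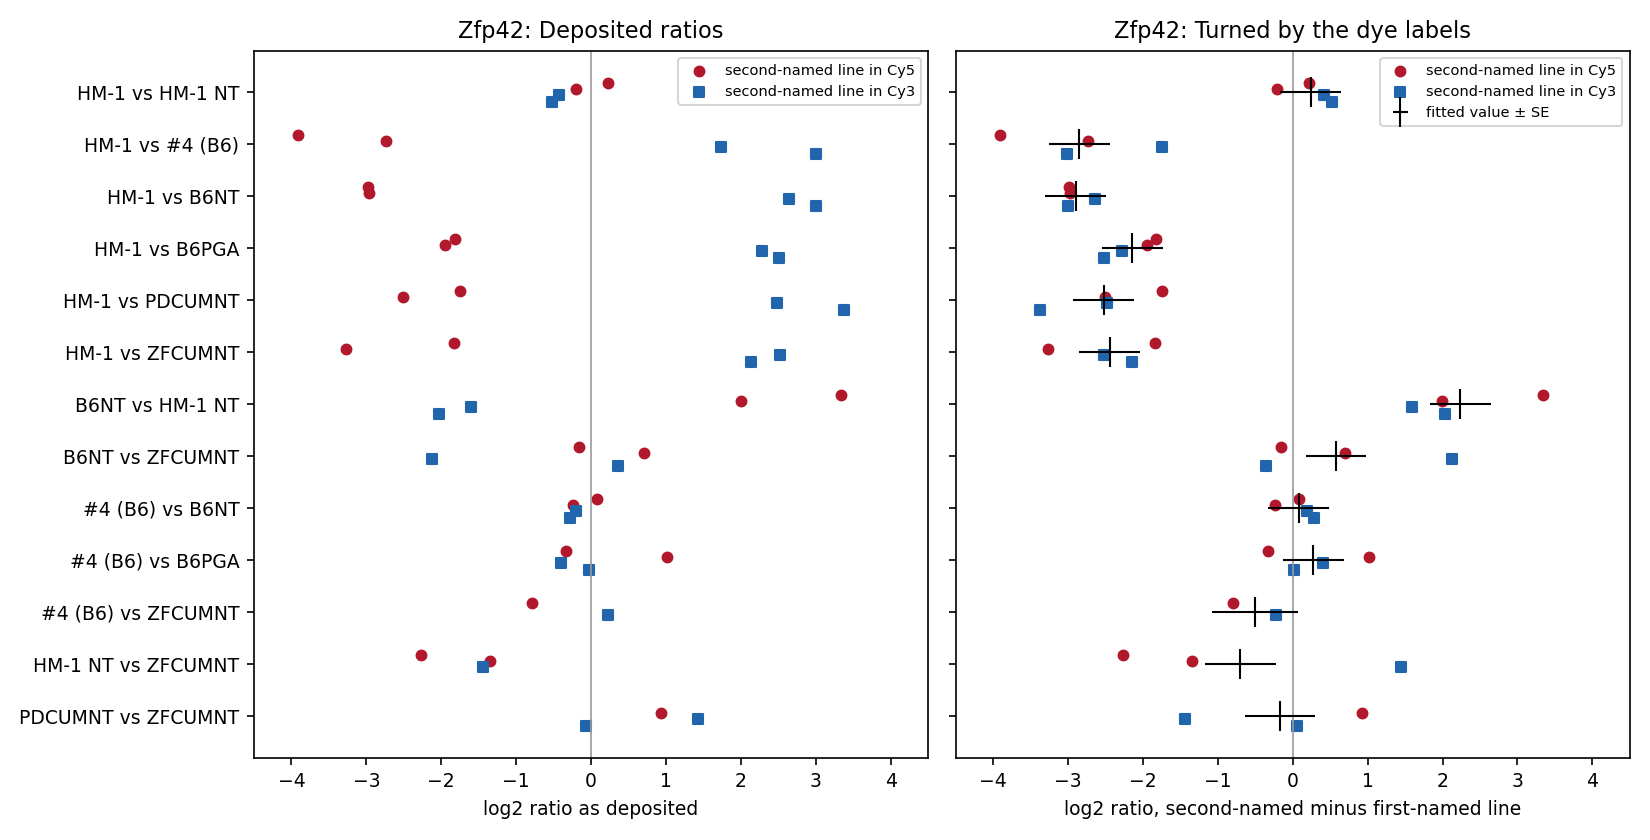
Zfp42 log2 ratio (second-named minus first-named line) on each measured array of the 13 comparisons, with arrays of the 2 dye orientations marked apart. The 20 arrays of HM-1 against 5 other lines lie from -3.91 to -1.74, the 4 arrays of B6NT vs HM-1 NT from 1.60 to 3.34, and the other 7 comparisons lie at or below 2.27 in size.

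HM-1 and HM-1 NT differed little when compared directly. The arrays of HM-1 vs HM-1 NT read 0.22, -0.21, 0.42 and 0.52, and the value was 0.24 ± 0.41 (SE, n = 4 arrays), less than its error. The signs were mixed, with 1 array below 0.

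Among the 5 lines with low Zfp42 the direct comparisons were small or scattered. In #4 (B6) vs B6NT the arrays read 0.08, -0.24, 0.20 and 0.28, for a value of 0.08 ± 0.41 (SE, n = 4 arrays). In #4 (B6) vs B6PGA they read -0.33, 1.02, 0.40 and 0.02, for 0.28 ± 0.41 (SE, n = 4 arrays). Both values were smaller than their error.

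B6NT vs ZFCUMNT gave -0.16, 0.70, 2.12 and -0.36, and a value of 0.58 ± 0.41 (SE, n = 4 arrays). Its SD of 1.13 came largely from array 3. PDCUMNT vs ZFCUMNT had 3 measured arrays at 0.93, -1.43 and 0.06, for -0.17 ± 0.47 (SE, n = 3 arrays). #4 (B6) vs ZFCUMNT had only 2, at -0.79 and -0.22, which is below the minimum of 3 arrays used for a test. The fit gave it -0.51 ± 0.57 (SE, n = 2 arrays).

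HM-1 NT vs ZFCUMNT stood apart from this order. Its 3 measured arrays read -2.27, -1.35 and 1.45, with an SD of 1.93, the largest for Zfp42 in any comparison. The value of -0.70 ± 0.47 (SE, n = 3 arrays) became -1.82 without array 3 and 0.05 without array 1.

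Zfp42 levels of the 7 lines were put on 1 scale by fitting all 48 arrays to line effects, with HM-1 as zero. HM-1 NT was at -0.51 ± 0.29 (SE, 11 arrays with that line). Then came B6PGA at -2.22 ± 0.33 (SE, 8 arrays), ZFCUMNT at -2.23 ± 0.26 (SE, 16 arrays) and PDCUMNT at -2.33 ± 0.34 (SE, 7 arrays). The lowest were #4 (B6) at -2.58 ± 0.27 (SE, 14 arrays) and B6NT at -2.74 ± 0.26 (SE, 16 arrays). As folds below HM-1 these are 1.42 for HM-1 NT and from 4.67 for B6PGA to 6.68 for B6NT.

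The only wide step in that order lay between HM-1 NT and B6PGA, where B6PGA minus HM-1 NT was -1.71 ± 0.43 (SE). Neighbours below that step differed by less than their SE. ZFCUMNT minus B6PGA was -0.01 ± 0.39, ZFCUMNT minus PDCUMNT was 0.10 ± 0.36, PDCUMNT minus #4 (B6) was 0.25 ± 0.42 and #4 (B6) minus B6NT was 0.16 ± 0.29. Over all 10 pairs of these 5 lines the largest difference was 0.52, between B6NT and B6PGA. The widest bound of any of the 10 95% intervals was 1.30, so a fold of up to 2.46 between 2 such lines lies within them. These intervals are a description and not a test. The fit includes the comparisons on which the gene was selected, and it treats arrays as replicates though they may not be separate cultures.

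The HM-1 NT level moved with the arrays used. Without HM-1 NT vs ZFCUMNT it was at -0.12 and the 5 low lines from -2.71 to -2.24. Without HM-1 vs HM-1 NT it was at -1.18. In both cases it lay between HM-1 and the 5 others.

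**Figure D2:**
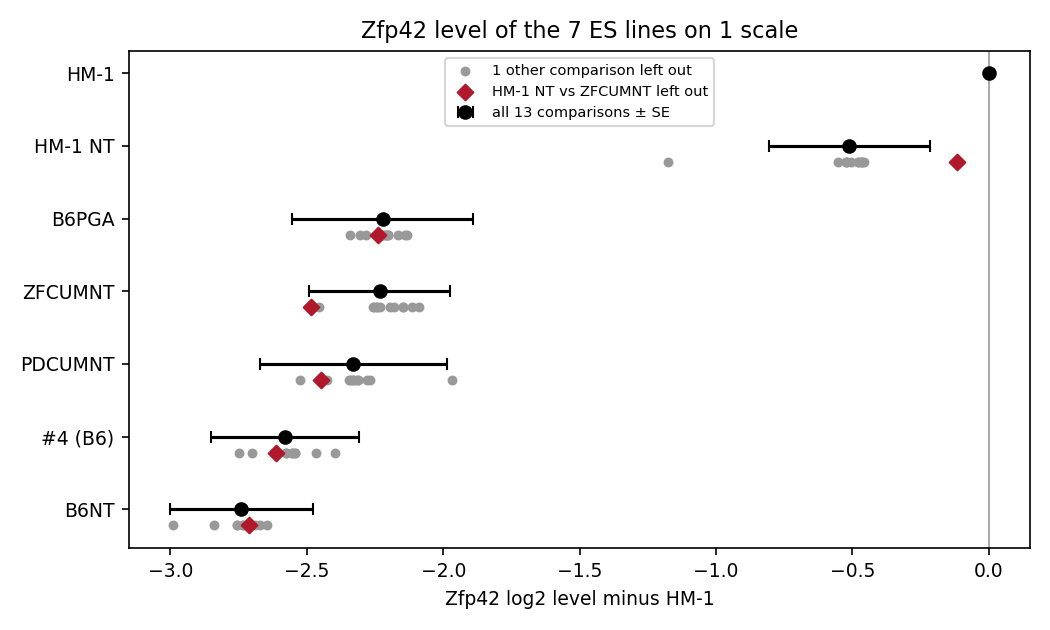
Zfp42 level of each line as a log2 difference from HM-1, fitted over 48 arrays, with bars of 1 SE. HM-1 NT sits at -0.51 and the other 5 lines lie together between -2.74 and -2.22.

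The 2 lines whose names begin with HM-1 were set against the other 5, a contrast chosen after the values were seen. The mean of the 5 minus the mean of the 2 was -2.17 ± 0.19 for Zfp42 (SE, 48 arrays), a fold of 4.49. None of the 11291 features tested in all 13 comparisons had a larger contrast in size, and the largest of them was Dhcr7 at -1.95. Zfp42 itself, with 2 arrays in #4 (B6) vs ZFCUMNT, is not counted in the 11291. The contrast also draws on the comparisons on which the gene was selected, so its place follows in part from that choice. Without HM-1 NT vs ZFCUMNT the contrast was -2.44 ± 0.17 for Zfp42 (SE, 45 arrays), a fold of 5.43, and 1 of the 11291 features, Dhcr7 at -2.46, was larger in size.

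Each direct value was also set beside the value that the arrays of the other 12 comparisons predict through the lines they share. HM-1 vs B6NT was -2.90 directly and -2.65 as predicted, and B6NT vs HM-1 NT was 2.24 directly and 2.21 as predicted. HM-1 vs ZFCUMNT was -2.44 against -2.11. In 6 of the 13 the gap was within 1 SE of the direct value, and the median gap was 0.45 in size. The prediction has an error of its own, which is not in that SE. Counts by SE, here and below, thus do not test whether direct and predicted values differ.

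The gap passed 2 SE of the direct value in 3 comparisons. HM-1 vs HM-1 NT was 0.24 directly and -1.18 as predicted. HM-1 NT vs ZFCUMNT was -0.70 directly and -2.37 as predicted, and #4 (B6) vs ZFCUMNT, with 2 arrays, was -0.51 and 0.66. The prediction for HM-1 vs HM-1 NT leans on the scattered arrays of HM-1 NT vs ZFCUMNT, since only these and B6NT vs HM-1 NT then carry HM-1 NT. With HM-1 NT vs ZFCUMNT left out altogether, the gap was within 1 SE in 8 of 12 comparisons and its median size was 0.32. It then passed 2 SE in HM-1 vs HM-1 NT, predicted at -0.63, and in B6NT vs HM-1 NT, predicted at 3.12.

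**Figure D3:**
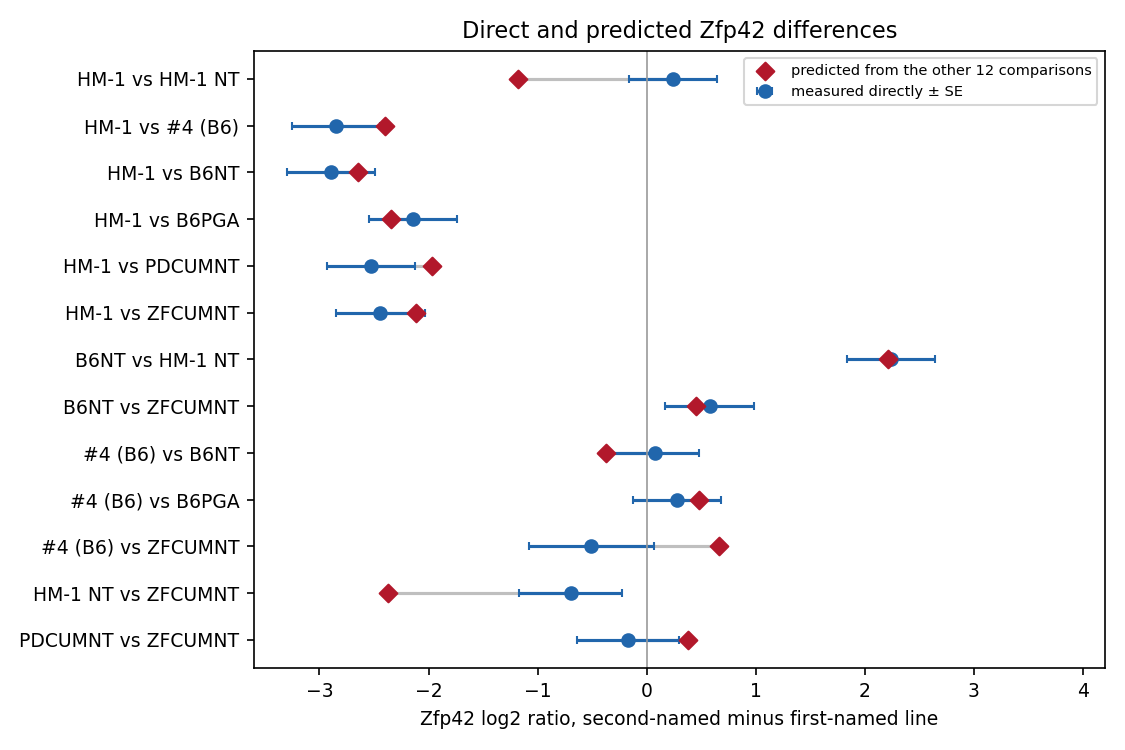
Direct Zfp42 value of each comparison (with bars of 1 SE) beside the value predicted from the other 12 comparisons, as log2 ratios. The 5 comparisons of HM-1 with low lines and B6NT vs HM-1 NT lie within 0.56 of their prediction, while HM-1 vs HM-1 NT, HM-1 NT vs ZFCUMNT and #4 (B6) vs ZFCUMNT lie at least 1.17 from theirs.

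Among the regulators of Zfp42, Pou5f1 (Oct4) did not follow its pattern, and the 2 probes of Sox2 disagreed with each other. Pou5f1 was called in 1 of 13 comparisons, HM-1 vs PDCUMNT, where it was higher in PDCUMNT on 4 of 4 arrays (0.88, 1.22, 0.46 and 0.93). Its value there was 0.87 ± 0.22 (SE, n = 4 arrays, limma adjusted p = 0.031, Benjamini-Hochberg), the opposite sign to Zfp42, and the call was lost without array 1, 2 or 4. Calls here are adjusted p-values under 0.05, and 1.14% of all features were called in that comparison. In HM-1 vs #4 (B6) and HM-1 vs B6NT, where Zfp42 was lowest, Pou5f1 was at 0.04 and 0.26 ± 0.22 (SE, n = 4 arrays). Sox2, as the mean of its 2 probes, ran from -0.95 to 0.67 over the 13 comparisons and was not called in any. In HM-1 vs PDCUMNT probe 1 was at -1.47 (SD 3.30) and probe 2 at 0.15 (SD 0.74). In HM-1 vs #4 (B6) they were at 0.72 (SD 1.79) and 0.51 (SD 0.97). With that spread, whether Sox2 followed Zfp42 cannot be read from these values.

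Of 26 transcription factors of the pluripotency network, 16 were on the array, Nanog not among them. They gave 7 calls in 197 gene-by-comparison tests (3.55%), against 0.532% over all features, and all 7 came from Klf4, Sall1 and Pou5f1. In HM-1 vs #4 (B6), where 0.219% of features were called, 2 of 15 fell and 0 rose. Klf4, a factor of the naive state, was at -0.82 ± 0.18 (limma adjusted p = 0.029) and Sall1, a zinc finger factor, at -1.78 ± 0.35 (limma adjusted p = 0.011), each lower on 4 of 4 arrays. The Klf4 call was lost without any 1 of the 4 arrays and the Sall1 call without array 1, 2 or 4.

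Unlike Zfp42, Klf4 and Sall1 were also higher in other low lines than in #4 (B6). Klf4 was at 1.01 ± 0.18 in #4 (B6) vs B6NT (limma adjusted p = 1.7e-03, with 0.245% of features called) and at 1.81 ± 0.18 in #4 (B6) vs B6PGA (limma adjusted p = 2.1e-08, with 1.22% called). Sall1 was at 1.62 ± 0.35 and 2.80 ± 0.35 in the same comparisons (limma adjusted p = 0.021 and 3.3e-06). In #4 (B6) vs B6NT the Klf4 call was lost without array 1 or 3 and the Sall1 call without array 1 or 4. Zfp42 was at 0.08 and 0.28 there. In HM-1 vs B6NT, B6PGA, PDCUMNT and ZFCUMNT Klf4 was at 0.23, 0.36, -0.02 and -0.35, none of them called.

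The list median of these factors was -0.67 in HM-1 vs #4 (B6), beside -0.03 over all features. In HM-1 vs B6NT, B6PGA, PDCUMNT and ZFCUMNT it was -0.11, -0.14, -0.00 and -0.24, beside all-feature medians of 0.02, -0.04, -0.08 and -0.06. In B6NT vs HM-1 NT it was 0.30 beside 0.01. Each of these medians lay closer to 0 than the Zfp42 value of the same comparison.

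Of 22 other ES cell marker genes 15 were on the array, with 7 calls in 195 tests (3.59%) from 4 genes. Dppa5a, an RNA-binding protein of ES cells, fell in HM-1 vs #4 (B6) to -1.41 ± 0.20 (arrays at -0.71, -0.68, -2.08 and -2.15, limma adjusted p = 1.9e-04). That call was lost without the dye term (adjusted p = 0.091). Without that term calls of Pou5f1, Rif1, Egr1, Rpl13a and Eif2s3x, and that of Klf4 in HM-1 vs #4 (B6), were among others lost as well. Dppa5a was higher in 3 other lines than in #4 (B6), at 2.12 in B6NT, 1.81 in B6PGA and 2.04 in ZFCUMNT (limma adjusted p from 4.2e-09 to 1.9e-07, each on 4 of 4 arrays). In #4 (B6) vs ZFCUMNT 0.935% of features were called. All its calls thus involved #4 (B6), while Zfp42 was low against HM-1 in 5 lines.

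Dppa3 (Stella), a maternal and germline factor, gave 2.18 ± 0.35 between HM-1 and HM-1 NT (arrays at 2.16, 3.16, 1.93 and 1.47, limma adjusted p = 1.2e-03, with 0.254% of features called), where Zfp42 was at 0.24. Lin28a, which binds let-7 precursors, rose with Zfp42 in B6NT vs HM-1 NT, at 1.24 ± 0.26 (arrays at 0.93, 1.12, 1.40 and 1.503, limma adjusted p = 9.3e-03, with 1.04% called). Its call was lost with arrays scaled to equal spread. Rif1, which acts in replication timing and at telomeres, stood at 1.14 ± 0.29 in #4 (B6) vs B6PGA (limma adjusted p = 0.033), a call lost without array 1, 3 or 4.

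Markers of primed and early differentiating cells had 8 of 20 genes on the array, and 8 of 92 tests were called (8.70%), all of Lefty2, an inhibitor of Nodal signalling. Lefty2 was lower in HM-1 NT, #4 (B6), PDCUMNT and ZFCUMNT than in HM-1, at -1.08, -1.29, -1.91 and -2.51 ± 0.25 (limma adjusted p from 4.9e-09 to 0.039). In HM-1 vs ZFCUMNT 0.101% of features were called. The call in HM-1 vs HM-1 NT was lost without array 1, 2 or 3 and that in HM-1 vs #4 (B6) without array 1 or 2. In B6NT vs HM-1 NT it was at -1.64 and in B6NT vs ZFCUMNT at -2.65, where 0.124% were called, while #4 (B6) vs B6NT and vs B6PGA gave 2.25 and 1.74. Lefty2 and Zfp42 thus had the same sign in HM-1 vs ZFCUMNT and opposite signs in B6NT vs HM-1 NT.

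Of the YY1 family and its Polycomb and CTCF partners, 5 of 7 genes were on the array. In them limma called 0 of 65 tests, with 2 at an unadjusted p under 0.05. With 0.532% called over all features, 0 calls in so few tests says little about these genes. Yy1 itself, the zinc finger factor from which Zfp42 is derived, ran from -0.45 to 1.08 ± 0.45 (SE). In no comparison was it called, also not where Zfp42 was lowest.

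Genes reported to be bound or regulated by Zfp42, with its ligase Rlim, had 3 of 5 on the array and 4 of 39 tests called (10.3%), all of Peg3. Peg3, a paternally expressed imprinted zinc finger gene on chromosome 7, had the opposite sign to Zfp42 in the 6 comparisons where Zfp42 was large, 4 of them called. In 6 of the other 7, with values of at most 0.58 in size, it had the same sign as Zfp42. Its arrays read 2.23, 2.11, 1.69 and 1.34 in HM-1 vs B6NT, for 1.84 ± 0.34 (SE, n = 4 arrays, limma adjusted p = 4.9e-03, with 0.17% of features called). It was at 1.44 in HM-1 vs PDCUMNT and 1.73 in HM-1 vs ZFCUMNT (limma adjusted p = 0.024 and 0.013, each on 4 of 4 arrays), and at 0.90 and 0.58 in #4 (B6) and B6PGA, not called.

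In B6NT vs HM-1 NT Peg3 fell on 4 of 4 arrays, which read -1.74, -1.55, -2.16 and -2.42. The value was -1.97 ± 0.34 (SE, n = 4 arrays, limma adjusted p = 1.4e-03), a call kept with each single array left out. The call in HM-1 vs B6NT was lost without array 3, that in HM-1 vs PDCUMNT without array 1, 2 or 4, and that in HM-1 vs ZFCUMNT without any 1 of its 4. Gnas, another imprinted gene, ran from -0.78 to 0.59 and Rlim from -0.76 to 0.92, neither called.

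On chromosome 8, RefSeq places 1 protein-coding gene between Zfp42 and Triml1, a gene of the TRIM family known from early embryos. Triml1 had 2 probes, and its value had the sign of Zfp42 in each of the 6 comparisons where Zfp42 was large. It was at -0.93, -0.74, -0.94, -1.48 and -1.39 ± 0.32 (SE) in #4 (B6), B6NT, B6PGA, PDCUMNT and ZFCUMNT against HM-1, and at 0.64 in B6NT vs HM-1 NT. Its 2 probes had the same sign in all 6.

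The Triml1 call was in HM-1 vs PDCUMNT, with arrays at -0.9995, -1.32, -1.71 and -1.87 (limma adjusted p = 0.012), and it was lost without array 4 (adjusted p = 0.052). In HM-1 vs ZFCUMNT the limma adjusted p was 0.069. Elsewhere Triml1 ran from -0.25 to 0.58. Klkb1, the prekallikrein gene, with 8 protein-coding genes between it and Zfp42, was not called in the 8 comparisons where it was measured on at least 3 arrays. Against HM-1 it was at -0.39 in #4 (B6), 0.71 in B6NT, 1.20 in B6PGA (each ± 0.74, SE, n = 4 arrays) and -1.08 ± 0.86 in PDCUMNT (SE, n = 3 arrays). Its sign was thus opposite to that of Zfp42 in B6NT and B6PGA, and in B6NT its arrays ran from -1.54 to 3.05. The other 5 neighbours listed had no probe. Of all list genes limma called 0 of 70 in HM-1 NT vs ZFCUMNT and 0 of 70 in PDCUMNT vs ZFCUMNT, where 0.292% and 0.763% of all features were called, with 6 at an unadjusted p under 0.05 in each.

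Likeness to Zfp42 was measured as Pearson's r over the 13 comparison values among the 6452 named genes tested in all 13. The comparisons share lines, and the lists and genes were ranked on the same arrays, so r is a description. Highest were the ribosomal protein gene Rpl13a (r = 0.92), the immediate early gene Egr1 (0.92), the kinase gene Csnk1a1 (0.90), Dhcr7 (0.87), Triml1 (0.86) and the sterol receptor gene Nr1h3 (0.86). Most opposed were the ribosome receptor gene Rrbp1 (-0.93), Peg3 (-0.86) and the translation factor gene Eif2s3x (-0.81). This r includes the Zfp42 value of #4 (B6) vs ZFCUMNT, which rests on 2 arrays. Without that comparison the same 6 were the most alike, with Egr1 first (0.93) and Triml1 at 0.92, but Eif2s3x was no longer among the 3 most opposed (rank 6448 of 6452). Without HM-1 NT vs ZFCUMNT the 9 genes held their places, over 12 comparisons. By Spearman's rho the ranks spread, from 2 for Egr1 to 102 for Dhcr7 among the 6 alike.

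Likeness of pattern was not likeness of size. The contrast of the 5 low lines with HM-1 and HM-1 NT was -0.34 for Rpl13a, -0.28 for Csnk1a1, -0.91 for Egr1, -0.85 for Nr1h3 and -0.85 for Triml1, beside -2.17 for Zfp42. Rrbp1 was at 0.42, Eif2s3x at 0.62 and Peg3 at 1.04. Without HM-1 NT vs ZFCUMNT these 8 contrasts kept their signs, with sizes from 0.39 for Csnk1a1 to 1.42 for Peg3. Dhcr7, which makes cholesterol from its last precursor, was the one of the 9 near Zfp42 in size.

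Dhcr7 was called in 5 comparisons. It was at -1.89, -2.47, -3.12 and -2.54 ± 0.39 in B6NT, B6PGA, PDCUMNT and ZFCUMNT against HM-1 (limma adjusted p = 0.015, 2.0e-04, 3.2e-06 and 2.5e-04), and at 2.88 in B6NT vs HM-1 NT (limma adjusted p = 3.3e-05). The call in HM-1 vs B6NT was lost without array 1 or 3. In HM-1 vs #4 (B6) it was at -0.62 and not called, where Zfp42 was at -2.85. Egr1 passed the threshold in B6NT vs HM-1 NT, at 1.47 ± 0.34 (limma adjusted p = 0.021), a call lost without array 1, 3 or 4. Rpl13a in that comparison, at 0.74, and Eif2s3x in HM-1 vs PDCUMNT, at 1.56, were also called, and both calls were lost without any 1 of the 4 arrays. Csnk1a1, Nr1h3 and Rrbp1 were called in no comparison.

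**Figure D4:**
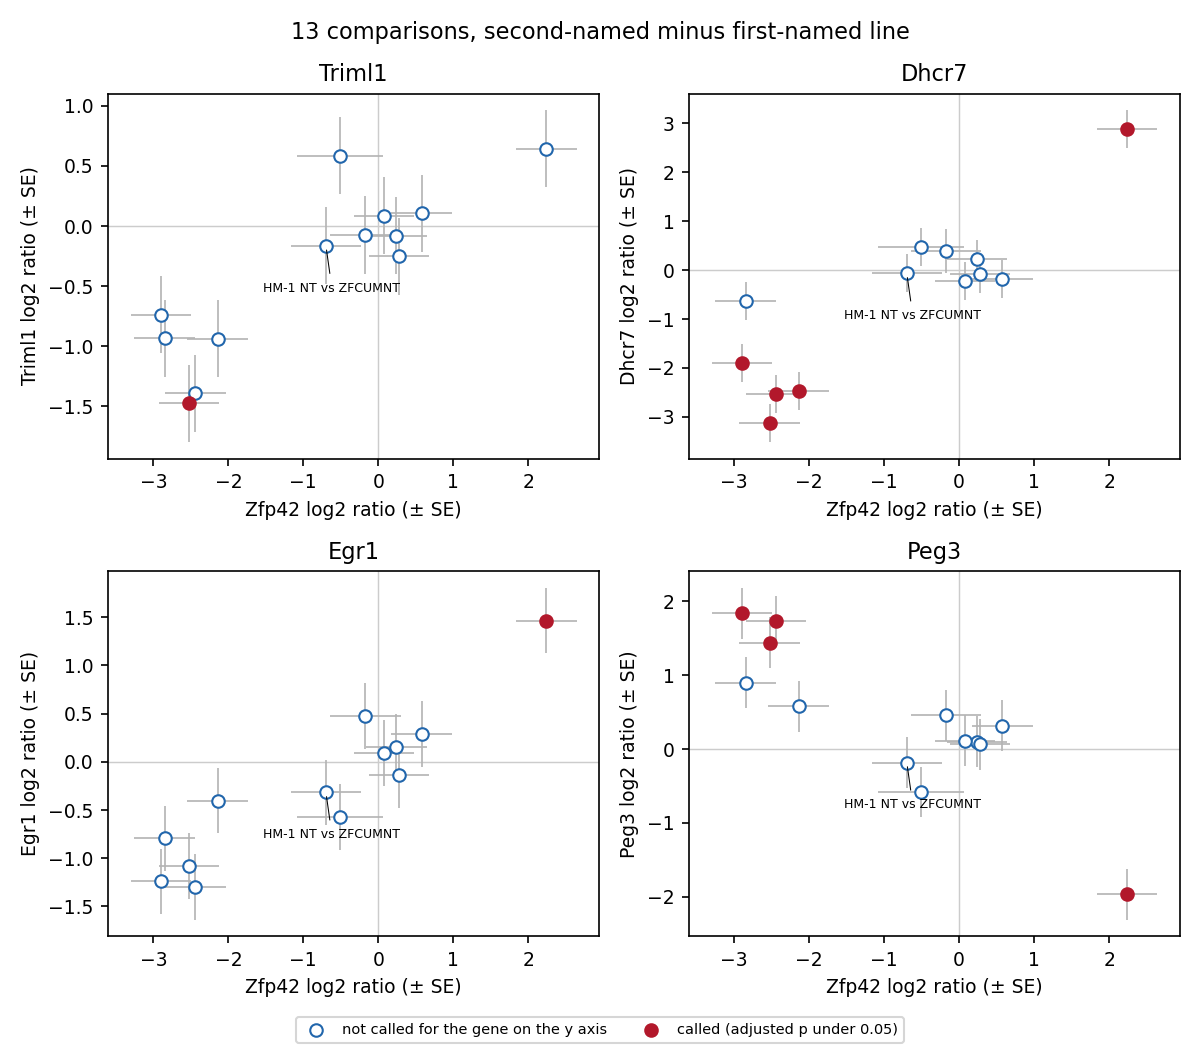
Zfp42 log2 ratio (x) against that of Triml1, Dhcr7, Egr1 and Peg3 (y) in the 13 comparisons, with bars of 1 SE and filled points where the gene on the y axis was called. Triml1, Dhcr7 and Egr1 are below 0 in each comparison of HM-1 with a low line and highest in B6NT vs HM-1 NT. Dhcr7 is only at -0.62 in HM-1 vs #4 (B6) and Egr1 only at -0.40 in HM-1 vs B6PGA. Peg3 runs the other way, from 1.84 to -1.97.

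ES cells are often grown on fibroblast feeders, so fibroblast markers were described beside Zfp42. Of 20 such genes 16 were on the array, and 14 of 197 tests were called (7.11%), from 9 genes. In HM-1 vs B6PGA 7 of 16 rose and 0 fell, with 0.494% of all features called, among them Col3a1, a fibrillar collagen, at 1.64 ± 0.25 (limma adjusted p = 1.8e-04) and Lox, which crosslinks collagen, at 1.31 ± 0.20 (limma adjusted p = 1.7e-04). The other 5 were Col1a1, Col1a2, Fn1, Vim and Sparc, at 0.97 to 1.25, and each of these calls was lost without at least 1 array.

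The fibroblast median was positive in all 6 comparisons with a large Zfp42 value, at 0.51 in #4 (B6), 0.11 in B6NT, 1.08 in B6PGA, 0.09 in PDCUMNT and 0.10 in ZFCUMNT against HM-1, and at 0.52 in B6NT vs HM-1 NT. Zfp42 was negative in the first 5 of these and positive in the last. Over all features the medians were -0.03, 0.02, -0.04, -0.08, -0.06 and 0.01 in the same order. The fibroblast median was also 0.50 for HM-1 NT against HM-1, beside -0.05 over all features, where Zfp42 was at 0.24. The share of all features above 0 was not counted. In HM-1 vs B6NT, PDCUMNT and ZFCUMNT 8 of 15, 8 of 16 and 8 of 15 fibroblast genes were above 0, and Zfp42 was at -2.90, -2.53 and -2.44. In RNA of whole cultures fewer cells with a transcript and less of it per cell cannot be told apart.

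The remaining fibroblast calls were Vim, the filament protein vimentin, in HM-1 vs #4 (B6) at 1.04 and #4 (B6) vs ZFCUMNT at -1.05, Col1a2 and Ccdc80 in B6NT vs HM-1 NT at 1.12 and 1.97, and Col1a1 and Timp3 in #4 (B6) vs B6NT at -1.32 and -1.15. Lox was at 0.79 in #4 (B6) vs B6PGA. Of these 7 calls, Timp3 and that of Vim in #4 (B6) vs ZFCUMNT held with every single array left out, but this Vim call was lost with arrays scaled to equal spread (adjusted p = 0.084). Zfp42 was at 0.08 in #4 (B6) vs B6NT and at 0.28 in #4 (B6) vs B6PGA.

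Trophectoderm markers had 6 of 9 genes on the array and 2 of 73 tests called (2.74%). Krt8, a keratin of simple epithelia, was at 2.27 ± 0.43 in B6NT vs HM-1 NT (arrays at 3.29, 2.40, 2.57 and 0.82, limma adjusted p = 2.8e-03). Cdx2, the trophectoderm transcription factor, was at 1.13 ± 0.28 in #4 (B6) vs B6PGA, where arrays 1 and 4 read -0.01 and 0.10, and its call was lost without array 2 or 3. The list median was 0.42, 0.16, -0.01, -0.22 and 0.17 in the 5 comparisons of HM-1 with low lines, mixed in sign while Zfp42 was negative in each. Over all features the medians there were -0.03, 0.02, -0.04, -0.08 and -0.06.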

How the data were processed

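The authors deposited 1 table of 2-channel ratios for 52 arrays, read here as log2 from the range of values on both sides of 0. Per the labels, 20 microgram of total RNA was labelled with Cy3 or Cy5. The labels' protocol text also mentions organs and a pooled reference, but both channel labels of every array name an ES line, and these were used. Background correction, normalization and genome build are not given in the sources used here. On each array 20 to 174 probes shared 1 top value and were treated as not measured. Probes of a symbol were averaged. Ratios were turned by dye label and fitted with limma 3.58.1 in R 4.3.3, all 52 arrays together, with a separate term for each comparison and 1 for the dye (-0.08 for Zfp42). A test needed 3 arrays with both orientations, and p-values were adjusted by Benjamini-Hochberg over all features of a comparison, with 0.05 as threshold. Line levels came from least squares over all arrays. The number of arrays limits the precision. No pair of arrays held near-identical values. Array numbers did not pair arrays: same-numbered arrays of different comparisons correlated at a mean of 0.0928, and those of the same dye orientation with another number at 0.0920. The members and lists were chosen with earlier results of these data known. Genes named are Zfp42, list genes with a call, Pou5f1, Sox2, Yy1, the chromosome 8 neighbours, and the 6 most alike and 3 most opposed by Pearson's r. Gnas, Rlim and the reading of single calls lost were added after the values were seen.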

Additional observations from a re-analysis of the deposited data

Results flagged for a closer look

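In HM-1 vs B6NT array 3 read -2.637 for Zfp42, apart from the other 3 arrays, which lay from -3.003 to -2.967. Its gap divided by the range passed Dixon's 95% critical value for 4 arrays. Of 53 groups of 4 arrays checked this was the 1 that passed, where chance alone gives about 1 in 20.

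The step from HM-1 to HM-1 NT was set beside the step from #4 (B6) to B6NT for Zfp42 and the list genes with a call. For 7 of these list genes the steps had opposite signs on every array. The first step minus the second was -2.4627 for Sall1, -3.3225 for Lefty2, 1.0806 for Vim, 2.0585 for Col1a1, 1.0556 for Sparc, 3.178 for Ccdc80 and 1.8043 for Timp3. These differences were not tested. Some of the genes had been called in these same steps, and the share of all features with opposite signs was not counted, so the number is a description. Zfp42 was not among these genes, with values of 0.24 and 0.08 in the 2 steps.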

How the results depend on the processing

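The Zfp42 values rest on turning the ratios by dye label. With the ratios as they stand, HM-1 vs HM-1 NT was -0.23, HM-1 vs #4 (B6) -0.47, HM-1 vs B6NT -0.077, HM-1 vs B6PGA 0.25, HM-1 vs PDCUMNT 0.40, HM-1 vs ZFCUMNT -0.11, B6NT vs HM-1 NT 0.43 and #4 (B6) vs B6NT -0.16. The levels against HM-1 were then -0.12 for B6NT, -0.12 for #4 (B6), -0.11 for PDCUMNT, 0.10 for B6PGA and -0.32 for ZFCUMNT, and list genes gave 14 calls. The signs of HM-1 vs B6PGA, HM-1 vs PDCUMNT and the B6PGA level were thereby reversed, and all 51 calls of named genes were lost. With the dyes swapped on arrays 3 and 4, unturned ratios cancel a difference between lines. These losses thus follow from the design and do not measure how firm the turned values are. With arrays scaled to equal spread HM-1 vs B6NT was -4.07 and HM-1 vs B6PGA -2.70. List genes gave 43 calls, against 28 without the dye term, 67 with array weights, 47 without HM-1 NT vs ZFCUMNT (added after the data were seen) and 0 with each comparison fitted alone in limma, where 181 of 879 tests had an unadjusted p under 0.05. The cause was not tested. With single arrays left out the list calls ran from 38 to 47. Zfp42 then ran from -3.20 to -2.51 in HM-1 vs #4 (B6), -2.96 to -2.83 in B6NT, -2.28 to -1.99 in B6PGA, -2.82 to -2.21 in PDCUMNT and -2.68 to -2.18 in ZFCUMNT against HM-1, and from 1.84 to 2.49 in B6NT vs HM-1 NT. Of the 51 calls of named genes 24 held with every single array left out. The array number shared across comparisons does not pair arrays. With it as a replicate block HM-1 vs #4 (B6) was -2.85, the HM-1 NT level -0.50 and the list calls 42. Over all results and alternatives 1146 values moved by less than the spread between arrays, or by less than 1.5 times for counts. Another 48 moved by more and 3 were reversed in sign. Many of the 1146 come from leaving out a single array, which changes a fit over all arrays little. Signal over background is not in these ratios, so a bound for dim probes could not be set.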
